A study of Zea mays with 4 samples.

Results

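The binding sites of THX20 (Zm00001d017420), a maize transcription factor of the trihelix family, were examined as the complete list of peaks deposited for this protein. All 105867 peaks were kept, which is 26.6% of the 398506 peaks listed for the 4 factors of the series. The other lists belong to C3H23 (Zm00001d008323) with 76032 peaks, CPP2 (Zm00001d031008) with 165420 and OBF4 (Zm00001d012553) with 51187. The data are DNA affinity purification sequencing (DAP-seq), in which a HaloTag fusion of a factor, made here in wheat germ extract, is held on beads and the fragments that it retains from a genomic DNA library are sequenced. Leaf DNA of B73, an inbred line, was used for all factors, with the age given as 14 DAG, and each factor had 1 library. The submitters place the factors downstream of ZmNAC128 and ZmNAC130 in the endosperm. The sites therefore show what a full-length protein retains from purified leaf DNA, without nucleosomes or partner proteins, and not what is occupied in endosperm. With 1 library per factor no difference between lists has a replicate check, so no p-value is given. The 95% intervals below cover only the counting of peaks and treat neighbours as independent, which they are not. The number of reads behind the list is unknown.

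Trihelix proteins are a family of plants, also called GT factors after the GT elements, short A- and T-rich promoter sequences around a GT core that the first members were found to bind. Their DNA-binding domain folds into helices that resemble a Myb repeat. Members are known for roles in light responses, in stress responses and in the growth of flowers, embryos and seeds. In maize much of the genome consists of transposable elements, and purified DNA exposes copies of a motif in such repeats as well as those near genes. A genome of the build of these lists was not used here, so sequences, genes and repeats at the sites are not given. Positions are those of the deposited lists, counted from 1.

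The strength of THX20 sites was described first, from the signal that the authors' file gives per peak. The scale of this signal is not stated, so it ranks peaks within a list, and between lists it was compared as a multiple of each list's own median. Most THX20 peaks were weak and alike: the median was 32, and 50% of the peaks lay between 22 and 53. The 90th percentile was 85.4 and the 99th 197, and the strongest 0.1% began at 474.2. From there the values ran up to 2849.2, which is 89.0 times the median. By the same measure the strongest peak stood at 18.25 times the median in C3H23, 18.6 times in CPP2 and 30.02 times in OBF4.

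THX20 stood apart from C3H23 and CPP2 mainly in this upper tail, and from OBF4 also in the bulk of the peaks. At the 75th percentile THX20 stood at 1.66 times its median, against 1.55 in C3H23, 1.73 in CPP2 and 1.396 in OBF4. Of the THX20 peaks 18.3% reached 2 times the median, against 15.3% in C3H23, 19.5% in CPP2 and 11.1% in OBF4. In THX20, 271 peaks (0.256%, interval 0.227 to 0.288%) reached 10 times the median, against 33 (0.0434%) in C3H23, 40 (0.0242%) in CPP2 and 107 (0.209%, 0.173 to 0.253%) in OBF4. The intervals of THX20 and OBF4 overlap at this level. At 20 times the median there were 44 THX20 peaks (0.0416%, 0.0310 to 0.0558%), against 7 in OBF4 (0.0137%, 0.00662 to 0.0282%) and 0 in the others, which allows up to 0.00395% in C3H23 and 0.00181% in CPP2. The strongest 1% of the THX20 peaks, 1058 in number, held 6.93% of the summed signal, while the same fraction held 4.61% in C3H23, 4.49% in CPP2 and 6.61% in OBF4. The strongest 0.1% held 1.65%, against 0.795% in C3H23, 0.708% in CPP2 and 1.27% in OBF4.

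**Figure D1:**
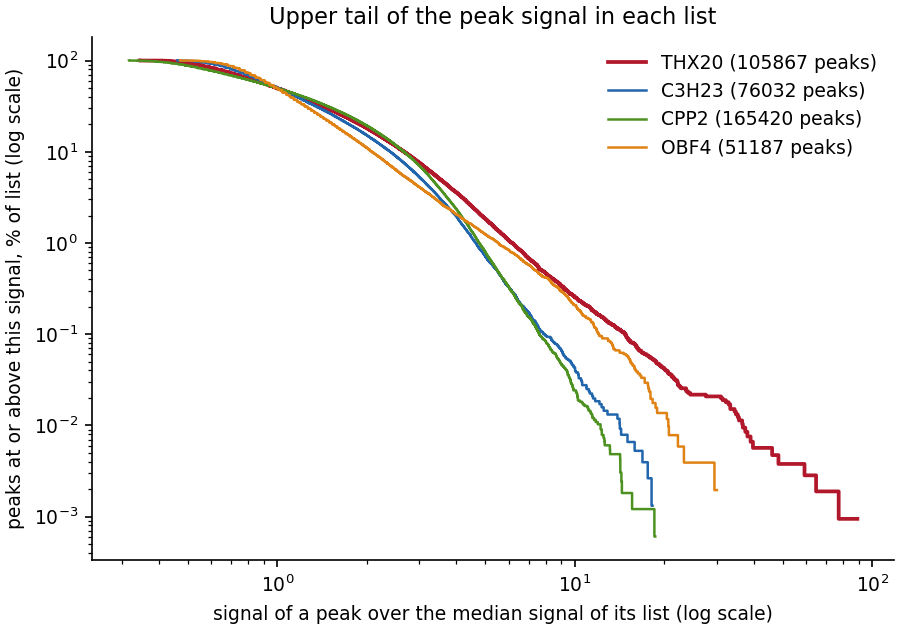
Share of peaks (percent of the list, log scale) at or above a given signal, with the signal as a multiple of the list's own median (log scale), for THX20 and the other factors. The THX20 curve runs on to 89.0 times the median, while the curves of C3H23, CPP2 and OBF4 end at 18.25, 18.6 and 30.02 times.

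The strongest THX20 peaks were then examined one by one, because their signals so far exceed the rest. There were 21 peaks with a signal of at least 1000, on 8 chromosomes, the lowest at 1004.5 and the next peak below at 991.8. The deposited −log10 p-value was at a cap of 999 for 16 of them, with signals from 1101.8 upward, so their order here rests on the signal and not on the p-value. The highest −log10 p-value under the cap was 318.17. The leading peak lay on chromosome 3 from 180885880 to 180886080. It had a second THX20 peak, of signal 344.8, 126 bp before it and another, of signal 658.1, 6313 bp before it. The peak in the 2nd place lay on chromosome 2 from 220675206 to 220675406 (signal 2466.3), and 6417 bp before it stood the peak in the 10th place, from 220668789 to 220668989 (1197.2). The 3rd, on chromosome 1 from 297291823 to 297292023 (2070.6), had a peak of 1030 only 64 bp away, but the strongest peak between 6.2 and 6.5 kb away, at 6387 bp, had a signal of 16.7.

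The same arrangement returned in the other leading peaks. The 4th peak, on chromosome 7 from 68595078 to 68595278 (signal 1893.1), and the 7th, from 68582449 to 68582649 (1270.3), stood 12629 bp apart, and between them lay a peak of 217.2, at 6280 bp from the 7th and 6349 bp from the 4th. The 5th, on chromosome 10 from 86757655 to 86757855 (1547.3), had a partner of 782.1 at 6255 bp. The 6th, on chromosome 1 from 258675776 to 258675976 (1473.4), had partners of 1174.4 and 1168.4 at 6357 and 6325 bp. The 8th, on chromosome 2 from 168326236 to 168326436 (1247.2), had a partner of 757.1 at 6348 bp. The 9th, on chromosome 4 from 14149511 to 14149711 (1216.8), had one of 1051.8 at 6344 bp. All 10 leading peaks had a THX20 peak between 6.2 and 6.5 kb away, and so had 18 of the 21 peaks of at least 1000, against 3.52% of all THX20 peaks. The 3rd and the 20th of them count through the same partner of 16.7. Of the 21, 0 were shared with C3H23, CPP2 or OBF4, which allows a share of up to 14.3%. Taken alone, these 21 are too few to set apart from the 11.1% of all THX20 peaks. Among the 86 peaks of at least 500, 1 overlapped another list (1.16%, 0.206 to 6.30%). From 200 to under 500, 68 of 933 did (7.29%, 5.79 to 9.14%). Both intervals lie below 11.1%, with neighbouring peaks counted as independent.

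To see how far this held beyond the leading peaks, the distances between all pairs of THX20 summits were counted. Among the 1019 peaks with a signal of at least 200, 48 pairs stood between 6.2 and 6.5 kb apart, where the density of pairs at 15 to 30 kb gives 0.5. Their median distance was 6348.5 bp, and the middle 50% of them lay between 6312 and 6395 bp. These pairs involved 73 peaks in 57 groups on 8 chromosomes, so the pairs are not independent: after overlapping peaks were joined into 1 site, 28 pairs were left, against 0.480 from the same density. The 73 peaks had a median signal of 416, against 246.7 for the other 946 peaks of at least 200, and they included 16 of the 21 strongest and 30 of the 86 peaks of at least 500. The window from 6.2 to 6.5 kb was chosen after the values had been seen.

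The excess at this distance grew with the signal. With both peaks at 100 or more there were 112 pairs against 11.3 expected from 15 to 30 kb (9.95-fold), with both at 50 or more 323 against 140.1 (2.31-fold), and over all peaks 2181 against 1710 (1.28-fold). Among the strongest 1% of each list, THX20 had 48 such pairs against 0.540 expected (88.9-fold) and CPP2 had 7 against 0.640 (10.9-fold). C3H23 had 0 against 0.180, and OBF4 had 0, with no pair at 15 to 30 kb to give an expectation. A stretch of 47751 bp between summits on chromosome 10, named here after its values were seen, held several such sites. Peaks of 633.1 (55853383 to 55853583) and 709.5 (55859792 to 55859992) stood 6409 bp apart. Further along, peaks of 573 (55894724 to 55894924) and 1129.4 (55901134 to 55901334) stood 6410 bp apart, and a peak of 639.8 (55880047 to 55880247) lay between both pairs.

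A second distance stood out, and this one did so in the whole list. Its excess also grew with the signal up to a level of 100, while at 200 or more the pairs were too few to compare. Over all THX20 peaks, 6568 pairs were 10.4 to 10.9 kb apart, against 2850 from the density at 15 to 30 kb (2.30-fold), and the fullest 100 bp, from 10600 to 10700 bp, held 1648 pairs against a mean of 574 per 100 bp at 15 to 20 kb. Among peaks of at least 100 there were 86 such pairs against 18.8 (4.58-fold), and among peaks of at least 200 there were 2 against 0.833. The pairs involved 9996 peaks, 9.44% of the list, in 7592 groups on all 10 chromosomes. These peaks had a median signal of 36, and 55.2% of them had another THX20 peak within 1 kb. Peaks with a partner at 15 to 15.5 kb, a window of the same width counted for comparison, numbered 4858, or 4.59% of the list. They had a median of 32, and 41.3% had such a neighbour. Of the peaks with a partner at 10.4 to 10.9 kb, 10.3% (9.74 to 10.9%) overlapped C3H23, against 6.44% (5.79 to 7.17%) at 15 to 15.5 kb, and 0.560% (0.432 to 0.727%) overlapped OBF4, against 0.926% (0.693 to 1.24%). For CPP2 the shares were 5.01% and 4.84%, with overlapping intervals. The same distance was in excess to a lesser degree in the other lists: 1.31-fold in C3H23, 1.395-fold in CPP2 and 1.14-fold in OBF4.

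**Figure D2:**
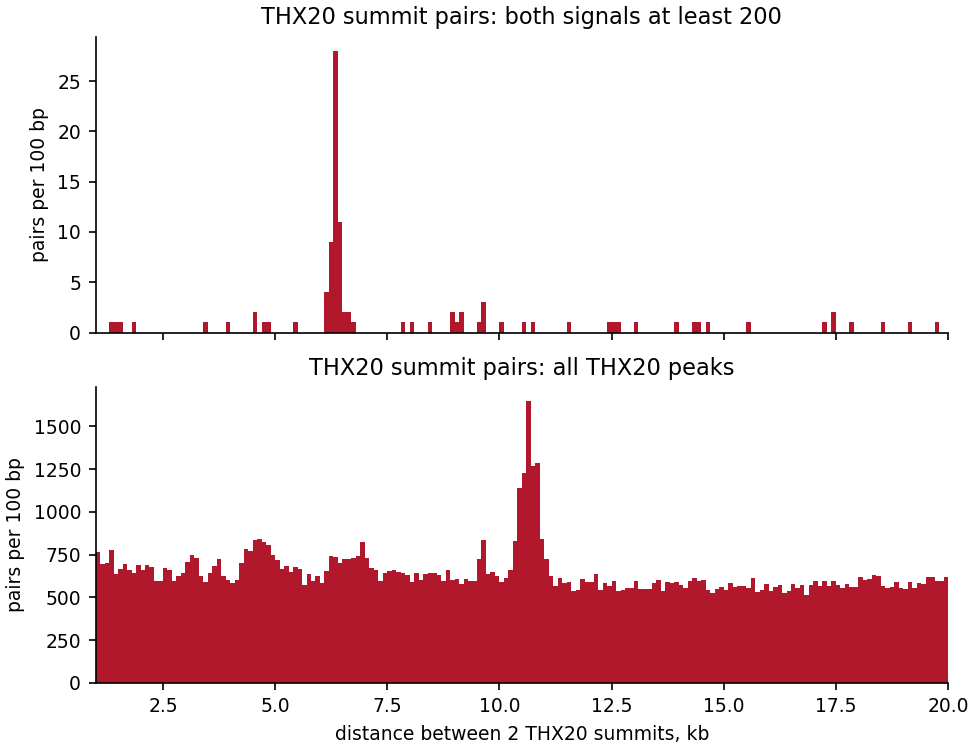
Number of pairs of THX20 summits per 100 bp of distance, from 1 to 20 kb, for pairs in which both signals are at least 200 (upper panel) and for all peaks (lower panel). The strong peaks pile up at 6.2 to 6.5 kb with 48 pairs, and the whole list at 10.4 to 10.9 kb with 6568 pairs.

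At short range THX20 peaks stood in groups. Of all peaks, 44082 (41.6%) had another THX20 peak within 1 kb, where independent and uniform positions on the same chromosomes and contigs give 9.498%, a 4.38-fold excess. The excess was 13.5-fold within 200 bp, 1.57-fold within 5 kb and 1.03-fold within 20 kb. Within 1 kb the other lists had 4.13-fold (C3H23, 28.6% of peaks), 2.91-fold (CPP2, 41.9%) and 2.68-fold (OBF4, 12.6%). Within 200 bp the excess was 13.5-fold for THX20 (26.7% of peaks), against 5.08-fold in C3H23 (7.24%), 8.89-fold in CPP2 (27.3%) and 5.34-fold in OBF4 (5.13%). The shares of CPP2 were thus close to those of THX20. Its lower folds go with a higher uniform expectation, 14.4% within 1 kb, from its longer list. Counted over all pairs of summits, the excess was greatest from 150 to 200 bp, 20.4 times the uniform density, and lower below 50 bp, 2.66 times. Overlapping peaks share sequenced fragments, and the smallest distance between 2 summits was 1 bp, so neighbours within 200 bp need not be separate binding events. With overlapping peaks joined, the excess within 1 kb fell to 2.29-fold. Part of this fall is by construction. Joined sites cannot have a neighbour within 200 bp, while the uniform expectation still covers the whole 1 kb.

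Most groups were pairs. Chaining peaks at most 1 kb apart gave 20285 groups of 2 or more, of which 85.2% held 2 peaks, 3010 held 3 or more and 74 held 5 or more. In the 17275 groups of 2 the summits were a median of 170 bp apart, and 63.2% were at most 200 bp apart. The stronger peak of such a group had a median of 1.802 times the signal of the weaker, and the 2 signals were nearly unrelated (Spearman correlation 0.127 over 17275 pairs, which share their library). Peaks in groups had a median signal of 35.8, against 30 for peaks that stood alone. The best peak of a group was stronger in larger groups, with a median of 52.7 in groups of 2, 72.3 in groups of 3 and 87.35 in groups of 4, where the highest is taken of more values.

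The fullest group held 8 peaks and lay on chromosome 10 from 61626173 to 61630746, with signals from 17 to 122.6. The next 4, with 6 peaks each, lay on chromosome 7 from 101328219 to 101330021 (signals 20.7 to 313), chromosome 1 from 98382686 to 98384153 (24.4 to 149.3), chromosome 6 from 77272762 to 77274319 (18.6 to 115.6) and chromosome 8 from 17610711 to 17613613 (26 to 145.8). In the group on chromosome 6, 5 of the 6 peaks overlapped CPP2. The groups on chromosomes 7 and 1 overlapped no other list, and the group on chromosome 10 overlapped C3H23 with 2 peaks.

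Grouping within 1 kb depended on strength, through neighbours within 200 bp. Of peaks below 20, 39.3% had a THX20 peak within 1 kb, and the share was 35.2% from 20 to under 30, 40.4% from 30 to under 50, 48.5% from 50 to under 100, 56.3% from 100 to under 200, 62.7% (59.6 to 65.7%) from 200 to under 500 and 86.05% (77.2 to 91.8%) at 500 or more. The rise lay among neighbours within 200 bp, which need not be separate binding events. The share with such a neighbour was 22.6% below 20, 34.4% from 50 to under 100 and 48.4% from 200 to under 500. At 500 or more it was 82.6%, where 71 of the 74 peaks with a neighbour within 1 kb had it within 200 bp. The median distance to the nearest THX20 peak was 2865.5 bp in the weakest class and 71 bp in the strongest. Preferred short distances also differed by class. Of the 63 pairs within 200 bp whose signals were both at least 200, 42 (66.7%, 54.4 to 77.1%) stood within 2 bp of a multiple of 32 bp, distances that make up 15% of those up to 200 bp. There were 8 pairs at 32 bp and 17 at 64 bp. For pairs whose weaker signal was under 50, this share was 19.6% of 12780, and distances of 153 bp (351 pairs) and 182 bp (287 pairs) led instead. Pairs with both signals at 200 or more numbered 0 at either of these distances, but 63 pairs are too few for this to show a difference. The step of 32 bp was chosen after the distances had been seen.

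**Figure D3:**
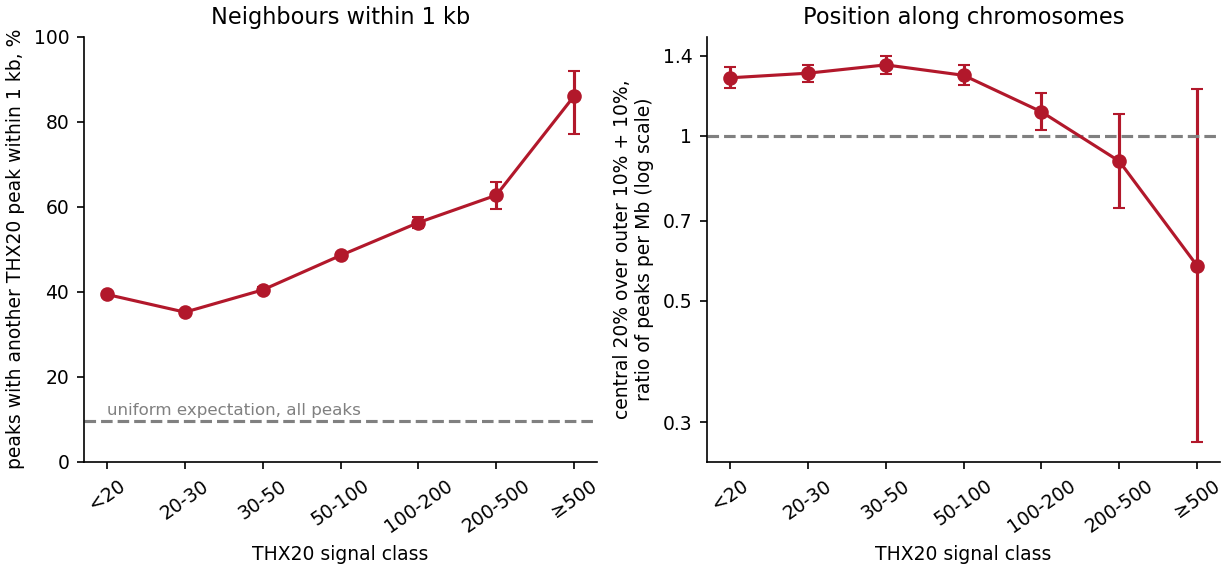
THX20 peaks by signal class, from weak to strong. The left panel includes neighbours within 200 bp, which need not be separate binding events. Left, share of peaks with another THX20 peak within 1 kb, with 95% Wilson intervals and the uniform expectation of 9.498% (dashed); right, ratio of the peak density in the central 20% of chromosome length to that in the outer 10% at either end (log scale, 95% counting intervals), which is above 1 in the weaker classes and 0.579 at 500 or more.

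Along the chromosomes THX20 peaks were spread widely, with 49.8 per Mb on the 10 chromosomes. Whole chromosomes ranged from 47.3 per Mb on chromosome 1 to 52.2 per Mb on chromosome 4. The signal varied as little, with a median between 31 on chromosome 6 and 32.1 on chromosome 3, and the share of peaks with a neighbour within 1 kb lay between 40.9 and 42.4%. Within each chromosome the density changed more. When each chromosome was cut into 10 equal segments, the densest segment had 1.41 times the density of the sparsest on chromosome 9 and 1.89 times on chromosome 6, with the other chromosomes between.

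The densest segment lay at 20 to 30% of chromosome length on chromosome 6 (66.2 per Mb), chromosome 8 (63.2) and chromosome 10 (65.5). It lay at 30 to 40% on chromosome 3 (73.4), chromosome 7 (74.5) and chromosome 9 (63.0). On chromosomes 1 (67.7) and 4 (66.0) it lay at 40 to 50%, and on chromosomes 2 (67.1) and 5 (62.7) at 50 to 60%. The ratio of the density in the central 20% of the length to that in the outer 10% at either end was 1.56 (1.48 to 1.65) on chromosome 2, 1.44 (1.36 to 1.52) on chromosome 5 and 1.43 (1.36 to 1.50) on chromosome 1, but 1.095 (1.02 to 1.17) on chromosome 8 and 1.07 (0.994 to 1.15) on chromosome 10. The sparsest segment was the first on chromosome 6 (35.1 per Mb), the last on chromosomes 2 (36.9) and 9 (44.6), and on chromosome 4 the one from 70 to 80% (35.2).

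**Figure D4:**
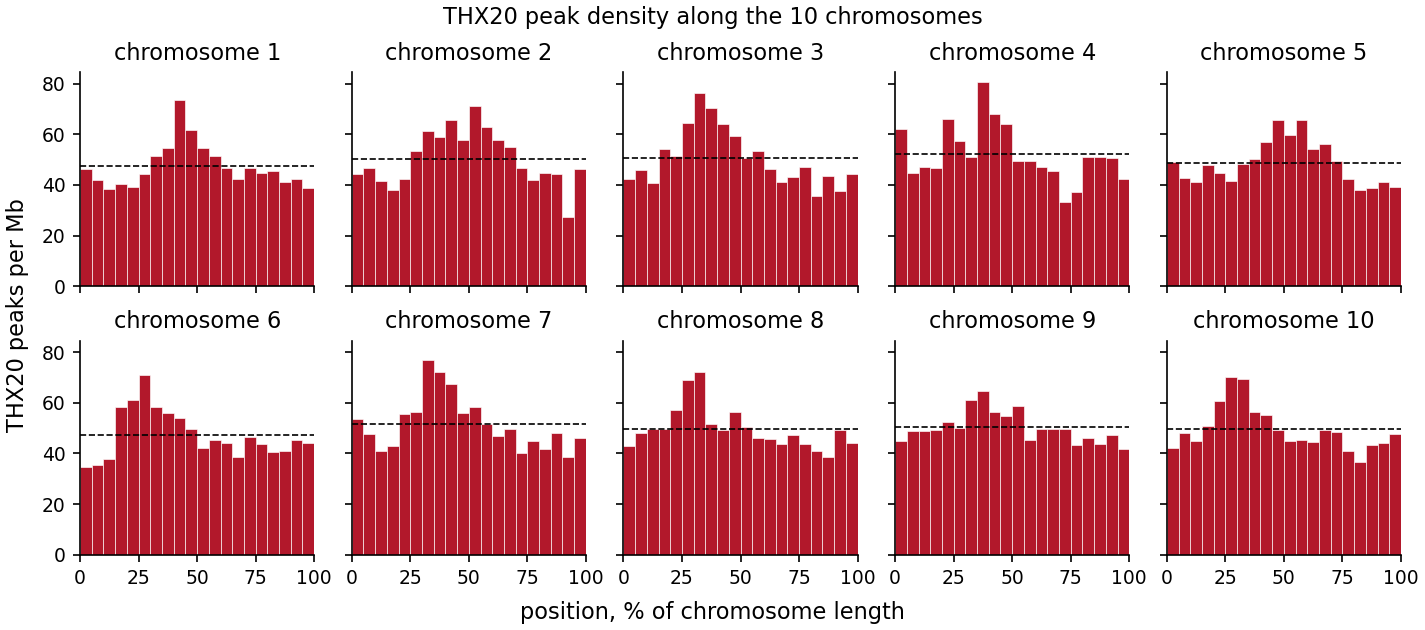
THX20 peaks per Mb in 20 equal segments of each of the 10 chromosomes, with the position in percent of chromosome length and the mean of the chromosome as a dashed line. By these segments the densest part lies left of the middle on chromosomes 3, 4 and 6 to 10 and near the middle on chromosomes 1, 2 and 5. On chromosome 4 it is the segment from 35 to 40% (80.5 per Mb).

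In 2101 full bins of 1 Mb the number of THX20 peaks ran from 2 to 115, with a median of 48 and 90% of the bins between 30 and 76. The variance was 3.98 times the mean, where uniform positions would give a ratio near 1. The fullest bin was chromosome 4 from 93000001 to 94000000. The emptiest, with 2 peaks, was chromosome 6 from 12000001 to 13000000, where C3H23 had 3 peaks, CPP2 6 and OBF4 0, against medians over all bins of 35, 78 and 23. The longest interval without a THX20 peak, 1247 kb between summits, covered most of this bin and ran from 11532863 to 12779892. On chromosome 9 the longest such interval was 935.6 kb, from 74991236 to 75926645, and on chromosome 10 it was 263.1 kb, the shortest of these maxima over the 10 chromosomes. In all, 144 gaps exceeded 200 kb, against 5.22 under uniform placement. Unresolved or repetitive sequence in these intervals was not examined here.

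The strongest peaks did not share the distribution of the rest. The ratio of central to outer density was 1.28 (1.22 to 1.33) below 20, 1.35 (1.30 to 1.398) from 30 to under 50, 1.11 (1.02 to 1.196) from 100 to under 200, 0.899 (0.737 to 1.10) from 200 to under 500 and 0.579 (0.276 to 1.22) at 500 or more, where it rests on 11 central and 19 outer peaks. Peaks of at least 200 numbered 197 in the central 20% and 226 in the outer ends, a ratio of 0.872 (0.720 to 1.06). This interval includes 1 but not the ratio of the weak peaks. Fewer central than outer peaks of at least 200 were found on 7 of 10 chromosomes, and equal numbers on 1. Of the 73 strong peaks with a partner at 6.2 to 6.5 kb, 2 were central and 14 outer. Without those 73 the ratio was 0.920 (0.757 to 1.12).

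The overlap of THX20 with each other list was then followed across the signal classes. An overlap means 1 bp or more in common, and the uniform expectation is the part of each chromosome or contig that would give an overlap. C3H23, a CCCH zinc finger protein by its name, was the most frequent partner. It overlapped 6531 THX20 peaks (6.17%, 6.03 to 6.32%), 4.49 times the expectation of 1.37%. CPP2, named for the cysteine-rich CPP family, overlapped 4775 (4.51%, 4.39 to 4.64%), 1.63 times the expectation. OBF4, named as an ocs-element binding factor of the bZIP class, overlapped 1112 (1.05%, 0.991 to 1.11%), 1.11 times the expectation (1.05 to 1.18). With the stronger 50% of the THX20 peaks the fold for OBF4 was 1.08 (0.995 to 1.18), and with the stronger 50% of both lists 1.04 (0.920 to 1.17), and both intervals include 1. In all, 11.1% of the THX20 peaks overlapped at least 1 other list, and 646 overlapped 2 or more.

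Sharing with C3H23 was high in the weak and middle classes and low in the strongest. It was 6.37% (6.04 to 6.73%) below 20, 5.58% (5.32 to 5.85%) from 20 to under 30, 6.79% (6.46 to 7.13%) from 50 to under 100, 5.49% (4.95 to 6.08%) from 100 to under 200 and 3.32% (2.35 to 4.68%) from 200 to under 500. At 500 or more it was 0 of 86, which allows up to 3.49%. At 200 or more together, 31 of 1019 peaks (3.04%, 2.15 to 4.29%) overlapped C3H23, 2.22 times the uniform expectation, so an excess was still present. The fold at 200 or more was 0.479 times that below 20 (0.337 to 0.681). The share was 3.33% for those of the 1019 that stood alone and 2.88% for those in groups. None of the 73 strong peaks with a partner at 6.2 to 6.5 kb overlapped any other list. Among the other 946 peaks of at least 200, 69 did (7.29%, 5.80 to 9.13%). Counted as independent peaks, 0 of 73 allows up to 4.11%. The 73 lay in 57 groups that make 29 pairs of groups, so the limit is higher and the counts do not settle a difference.

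For CPP2 the share was 5.09% (4.79 to 5.41%) below 20 and 4.25% (4.02 to 4.49%) from 20 to under 30. It was 4.87% (4.36 to 5.43%) from 100 to under 200 and 3.24% (2.32 to 4.51%) at 200 or more, where the fold of 1.17 (0.839 to 1.64) could not be told from the uniform expectation. The excess with CPP2 was not found among the stronger peaks of both lists: with the stronger 50% of each it was 0.953-fold (0.886 to 1.02), while with the stronger 50% of the THX20 peaks and all CPP2 peaks it was 1.61-fold. For OBF4 the share stayed near 1% in all classes up to 500, from 0.955% (0.834 to 1.09%) at 50 to under 100 to 1.196% (0.956 to 1.50%) at 100 to under 200. The overlap with OBF4 exceeded the uniform expectation for THX20 peaks that stood alone (1.17%, 1.24-fold with an interval of 1.16 to 1.34). For those in groups it did not (0.878%, 0.931-fold with 0.843 to 1.03). C3H23 showed the opposite order, 4.10-fold (3.97 to 4.24) for peaks that stood alone and 5.03-fold (4.86 to 5.20) for those in groups, and so did CPP2, 1.43-fold (1.38 to 1.49) and 1.91-fold (1.84 to 1.99).

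**Figure D5:**
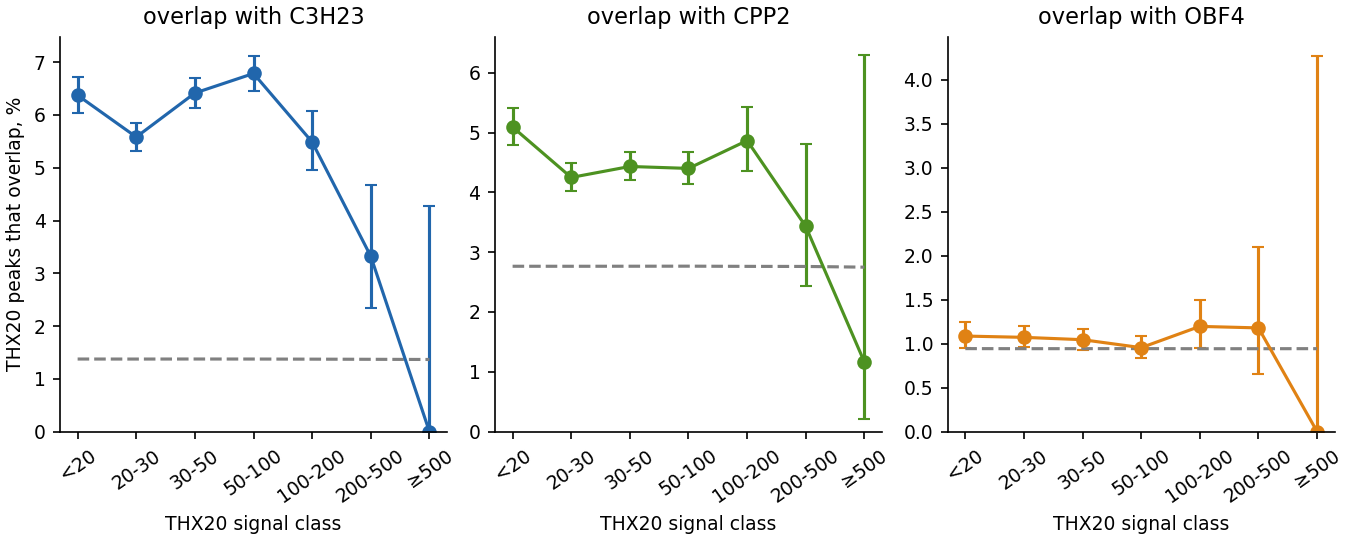
Share of THX20 peaks that overlap C3H23, CPP2 and OBF4 by THX20 signal class, from weak to strong, with 95% Wilson intervals and the uniform expectation (dashed); the vertical scales differ. The share with C3H23 is 6.37% in the weakest class, 3.32% from 200 to under 500 and 0 of 86 at 500 or more.

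The overlapped C3H23 peaks stood higher in their own list in the stronger THX20 classes, although over single peaks the signals were only weakly related (Spearman correlation 0.0955 over 6531 peaks). Their median place from the top of the C3H23 list was 54.3% for THX20 peaks below 20, 43.0% from 50 to under 100, 36.9% from 100 to under 200 and 25.5% for the 31 at 200 or more. For OBF4 it was 62.8% below 20, 32.1% for the 75 from 100 to under 200 and 43.1% for the 11 at 200 or more (correlation 0.158 over 1112 peaks). For CPP2 it was 68.0% below 20, 62.1% from 100 to under 200 and 61.0% for the 33 at 200 or more, so THX20 mostly overlapped CPP2 peaks from the weaker 50% of that list. The strongest THX20 peak that overlapped C3H23 ranked 136th in its list and lay on chromosome 7 from 41529809 to 41530009 (signal 425.8). For CPP2 it ranked 51st and lay on chromosome 1 from 174716807 to 174717007 (605.8), and for OBF4 it ranked 96th and lay on chromosome 6 from 168684543 to 168684743 (482.4). In the 18 regions where joined peaks of all 4 lists met, the best THX20 signal ran from 16 to 137.2 with a median of 25.6. The highest of these was on chromosome 4 from 14850566 to 14851395, followed by 131.9 on chromosome 1 from 137779793 to 137780532 and 123.6 on chromosome 8 from 78660681 to 78661087. The other 15 were below 60, on chromosomes 1, 2, 3, 4, 7, 8 and 9.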

How the data were processed

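DAP-seq libraries of 4 maize factors, 1 each, were compared through their deposited peak lists, and each sample was named by its title. The submitters' processing notes name Trimmomatic 0.39, a read trimmer, and Bowtie2 2.4.1, a read aligner. Which peak caller, control, depth and genome build were used is not given in the sources used here. Every deposited peak is 201 bp wide. The authors deposited a score from 100 to 333 for THX20, a signal of unstated scale, and −log10 p-values and q-values with a lowest −log10 q of 3 and a cap at 999. The deposited signal ranked the peaks, and its Spearman correlation with −log10 p was 0.982.

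Here distances between summits, groups chained at 1 kb, densities, overlaps and signal classes were computed with scipy 1.17.1, numpy 2.4.6 and pandas 2.3.3 under Python 3.11.15, with plots by matplotlib 3.10.9. Uniform expectations were computed in closed form from list lengths and the span up to the last peak of any list, without leaving out sequence that cannot be aligned. Shares have Wilson intervals, and density ratios have intervals from the counts. The counting was tested on simulated data. In a RefSeq gene table of another build (Zm-B73-REFERENCE-NAM-5.0) the last gene lay 1.17 to 7.25 Mb after the last peak on 9 chromosomes and 0.935 Mb before it on chromosome 2, so no genes were assigned.

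Sites named are the 10 strongest peaks, the 5 fullest groups, the extreme bins, the longest gaps, the strongest peak shared with each list and the regions of all 4 lists. The members and classes were chosen with earlier results of these data known, and the windows of 6.2 to 6.5 kb, 10.4 to 10.9 kb and the 32 bp step after the distances were seen. Alternatives used the stronger 50% of the lists, joined peaks, closer summits, local or shifted expectations, other windows, ranking by −log10 p and the chromosomes alone.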

Additional observations from a re-analysis of the deposited data

Results flagged for a closer look

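THX20 also had 1072 peaks on contigs that are not placed on a chromosome, which the profile along the chromosomes did not use. A control sample was not analysed here. They lay on 150 contigs at 53.5 peaks per Mb, against 49.8 on the chromosomes, with contig length counted up to the last peak of any list and over contigs with a THX20 peak only, which raises the first value. Their median signal was 33, 9 of them reached 200, and the highest was 600.9. Of these peaks 42.9% had a THX20 neighbour within 1 kb and 5.88% overlapped C3H23.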

How the results depend on the processing

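No paired analysis was possible because the factors have a single library each, so no replicate could be left out either. Of 40 alternative values, 25 stayed within the interval of the reported value, or within 1.5 times of a count. The excess of THX20 neighbours within 1 kb was 6.03-fold in the stronger 50% of the peaks, 4.201-fold against the density of each 1 Mb bin and 1.57-fold within 5 kb. With joined peaks it was 2.29-fold, in part by construction, as no neighbour within 200 bp can remain. The excess with C3H23 was 4.65-fold with the stronger 50% of the THX20 peaks, 5.22-fold with the stronger 50% of every list, 4.25-fold with summits within 100 bp, 4.26-fold by 1 Mb bins and 4.19-fold against shifted lists. That with CPP2 turned to 0.953-fold with the stronger 50% of every list, and was 1.79-fold with summits within 100 bp and 1.47-fold against shifted lists. That with OBF4 was 1.04-fold with the stronger 50% of every list, with an interval from 0.920 to 1.17, and 1.23-fold with summits within 100 bp. Strong pairs at 6.2 to 6.5 kb numbered 28 with joined peaks, as fewer peaks enter by construction, and 56 from 6.0 to 6.7 kb. For the other changes the cause was not tested. Settings for joined strong pairs and for the position of strong peaks were chosen after seeing the data. Genes and motifs were not examined, because no genome of the build was used. How deeply the library was sequenced is unknown, which limits the count of weak peaks.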

Other observations

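The likeness of the signals within a pair gave no single order by distance. With both signals at 200 or more, the stronger peak had a median of 1.60 times the signal of the weaker in the 48 pairs at 6.2 to 6.5 kb (Spearman correlation 0.394) and 1.34 times in the 25 pairs at 15 to 30 kb (0.315). Over all peaks the median was 1.82 times in the 2181 pairs at 6.2 to 6.5 kb (0.182), 1.67 times in the 6568 pairs at 10.4 to 10.9 kb (0.145) and 1.76 times in the 85505 pairs at 15 to 30 kb (0.0223). These pairs share peaks and the library, so the correlations are descriptions only.

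Where THX20 peaks overlapped CPP2, the signals of both peaks were nearly unrelated (Spearman correlation 0.0190 over 4775 peaks). The median distance between the summits of overlapping peaks was 104 bp for C3H23, 88 bp for CPP2 and 89 bp for OBF4.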
